A study of Homo sapiens with 22 samples.

Results

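The mitochondrial ribosomal proteins are the nuclear-encoded proteins of the ribosome that works inside mitochondria, and their mRNAs were followed here through a BRIC-Seq chase in HEK293T cells. Members were the protein-coding genes whose GENCODE symbol is MRPL or MRPS followed by a number, with an optional letter A to C. Each gene was represented by its protein-coding transcript with the highest mean count, which had to reach a mean CPM of 1, where CPM is the count scaled to the size of its library. The rule gave 78 genes of the 15093 genes tested, or of 10731 protein-coding genes with 1 transcript each, and no matching gene was lost to the CPM minimum. Of the 78, 49 carry a large subunit symbol (MRPL) and 29 a small subunit symbol (MRPS), and they lie on 21 chromosomes.

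Mitochondrial ribosomes translate the few mRNAs that mitochondrial DNA encodes, all for subunits of the respiratory chain and ATP synthase. Their RNA comes from mitochondrial DNA, whereas each protein is made on cytosolic ribosomes from a nuclear mRNA and imported. Part of the set has counterparts in bacterial ribosomes and part was acquired by mitochondria. ZNF598 ubiquitinates cytosolic ribosomes that have collided, so mRNAs such as these are within its reach, while translation inside the organelle is not.

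HEK293T, a human embryonic kidney line, was used with either of 2 kinds of hairpin RNA, a control (shControl) and one that targets ZNF598 (shZNF598); how many hairpins or clones stand behind each is not given in the sources used here. All cells were kept in 150 µM bromouridine (BrU) for 24 h, which marks newly made RNA, and then moved to medium without it. Marked RNA was captured at 0, 2, 4, 6 and 10 h of this chase in 2 libraries per shRNA and time, and at 24 h in 1 library per shRNA, giving 22 libraries in 12 groups. Every group carried BrU, and whether the paired libraries came from separate cultures is not given in the sources used here, so the p-values measure the spread between these libraries. The study added spike-in RNA to its samples, which was not used here. Levels of members are CPM scaled by TMM, a trimmed mean that sets the libraries level on the bulk of their transcripts. They are relative to that bulk and are not shares of all counts in a library. A slope is that of a straight line over the chase hours. A slope of 0 means that a transcript on average kept pace with the bulk. A positive slope means that it outlasted the bulk, and a negative slope that it was lost faster. A slope does not show a course that bends. MRPL39 in shControl, with a slope of -0.013, had mean levels of 9.78, 13.6 and 8.65 CPM at 0, 6 and 10 h.

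Libraries of 0-10 h held 52352359 to 96963584 counts, and those of 24 h held 21220829 (shControl) and 40157613 (shZNF598). ZNF598 and the markers below were checked in the libraries of 0-10 h only, in CPM by total counts. ZNF598 lay at 2.87 to 9.56 CPM in shControl libraries and at 0.439 to 1.17 CPM in shZNF598 libraries, with no overlap. Of the markers checked for the line, VIM, NEFL and NEFM were present in each of these libraries, at 113 to 163, 5.85 to 9.26 and 0.642 to 2.29 CPM. ALB, PTPRC, INS and MYH6, which mark liver, blood, pancreas and heart, had 0 to 2 counts in any of them. COL1A1, a fibroblast gene that other cells also express, had 0.629 to 1.36 CPM.

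Because ZNF598 responds to ribosomes that stall, for instance on runs of lysine and arginine codons, the coding stretches with the longest such runs among the members are shown here, with the codons of the run in capitals and 12 or fewer bases on each side. They come from GENCODE transcripts on GRCh38, for the 69 members whose transcript model has the length of the deposited row. MRPS5 has 5 lysines and 1 arginine in a row at residues 119 to 124 of 430, in exon 4 of 12 (chr2:95109935-95109976, minus strand). MRPS15 has 5 basic residues at 221 to 225 of 257, in exon 8 of 8 (chr1:36455875-36455913, minus strand). MRPS30 has 5 arginines at 158 to 162 of 439, in exon 1 of 5 (chr5:44809422-44809460, plus strand). MRPS6 ends in 5 basic residues at 121 to 125 of 125, in exon 3 of 3 (chr21:34142571-34142597, plus strand).
MRPS5: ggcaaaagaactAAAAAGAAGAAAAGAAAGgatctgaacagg
MRPS15: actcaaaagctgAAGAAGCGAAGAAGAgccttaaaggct
MRPS30: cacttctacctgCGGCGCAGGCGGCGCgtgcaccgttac
MRPS6: ttatattccacaAAGAAGAGGAAGAAG

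Promoters are shown for the members at both ends of the range of slopes, MRPL44 (chr2:223957213-223957512, plus strand) and MRPL40 (chr22:19432295-19432594, plus strand), each with 250 bases before and 50 after the start site. Also shown is the part that the promoters of MRPS11 and MRPL46 have in common (chr15:88467458-88467638, plus strand), since these genes start back to back and their slopes differed. The sequences are from RefSeq on GRCh38.p14, and capitals mark matches, on either strand, to 1 of 3 promoter motifs (CCGGAAG for ETS factors, CGCANGCG for NRF1 and AAGATGGC for YY1).
MRPL44: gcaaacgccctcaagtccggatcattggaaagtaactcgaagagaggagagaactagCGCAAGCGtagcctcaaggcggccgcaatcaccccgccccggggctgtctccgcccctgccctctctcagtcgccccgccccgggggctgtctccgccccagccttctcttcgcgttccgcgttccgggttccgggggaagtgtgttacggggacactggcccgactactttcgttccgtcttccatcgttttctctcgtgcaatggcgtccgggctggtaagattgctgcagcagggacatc
MRPL40: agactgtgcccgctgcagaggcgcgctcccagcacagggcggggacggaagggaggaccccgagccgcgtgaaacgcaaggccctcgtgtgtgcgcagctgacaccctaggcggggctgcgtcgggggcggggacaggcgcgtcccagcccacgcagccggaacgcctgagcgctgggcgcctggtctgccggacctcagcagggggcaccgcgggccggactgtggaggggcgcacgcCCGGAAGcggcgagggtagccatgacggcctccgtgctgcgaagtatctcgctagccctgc
MRPS11 and MRPL46, shared: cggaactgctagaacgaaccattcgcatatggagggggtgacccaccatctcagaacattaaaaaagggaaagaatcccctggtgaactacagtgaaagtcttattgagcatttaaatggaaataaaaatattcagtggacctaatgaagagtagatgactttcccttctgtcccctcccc

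The table held promoters for 69 of the 78 members, 85 in all. An ETS match was present in 38.8% of these promoters, against 17.9% of the promoters of protein-coding genes tested and 10.3% of all 35116 promoters. A YY1 match was present in 27.1%, against 5.14% and 2.89%, and an NRF1 match in 18.8%, against 17.7% and 10%. In 12 of the 21 genes with a YY1 match it lay over the annotated start codon, which is close to the start site in these genes, and no ETS match overlapped a YY1 match. The motifs say nothing of binding in these cells. In shControl, the slope ranged from -0.251 to 0.118 log2 per hour in the 21 members with a YY1 match (median -0.127) and from -0.322 to 0.152 in the 48 without (median -0.025). With an NRF1 match it ranged from -0.322 to 0.023 in 15 members (median -0.034) and without one from -0.251 to 0.152 in 54 (median -0.041). With an ETS match it ranged from -0.212 to 0.152 in 30 members (median -0.018) and without one from -0.322 to 0.136 in 39 (median -0.085). The ranges overlap for each motif, and the differences were not tested.

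In these bulk samples, fewer cells that hold an mRNA and less of it per cell cannot be told apart. In control cells the mitochondrial ribosomal protein mRNAs did not share a rate of loss. Of the 78 members, 20 rose and 40 fell relative to the bulk over 0-10 h (edgeR's quasi-likelihood test on the slope, adjusted p below 0.05 over all 79513 transcripts tested). The background was 33.5% of all transcripts called higher and 40.8% lower, and 25.4% and 52.5% of protein-coding genes. The median slope of the members was -0.0347 log2 per hour, against -0.0574 for protein-coding genes, and their middle range (-0.146 to 0.0203) lay within that of protein-coding genes (-0.132 to 0.0411) except at its lower end. Scaling by total counts instead of TMM moved the median of all transcripts from -0.0178 to -0.0876 log2 per hour and the members' calls to 10 higher and 62 lower. Under that scaling 17.3% of all transcripts were called higher and 61.5% lower, so the direction of members near 0 rests on what the bulk is taken to be.

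Other lists of ribosomal and mitochondrial genes stood elsewhere on this scale. The cytosolic ribosomal proteins had a median slope of 0.196 in shControl, with 77 of 81 called higher, and the nuclear-encoded respiratory chain subunits one of 0.184, with 71 of 80 called higher. The quartiles of these lists (0.172 to 0.224 and 0.132 to 0.215) lay above the upper quartile of the mitochondrial ribosomal proteins. The slopes are set side by side, and the difference between lists was not tested.

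**Figure D1:**
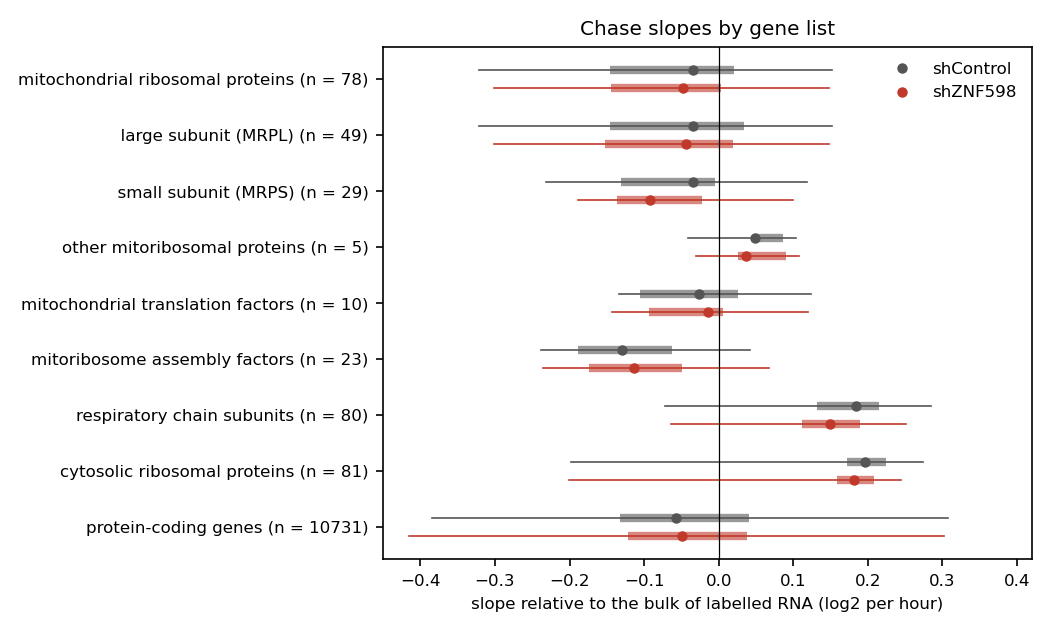
Slopes over 0-10 h in log2 per hour relative to the bulk of labelled RNA, for gene lists in shControl (grey) and shZNF598 (red). Points are medians over genes, thick bars the quartiles and thin lines the full range. The mitochondrial ribosomal proteins straddle 0, with a median of -0.0347 in shControl, while the cytosolic ribosomal proteins centre on 0.196 and the respiratory chain subunits on 0.184.

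MRPL44, a large subunit protein with an RNase III-like fold, was lost fastest. Its level in shControl libraries was 9.16 and 10.9 CPM at 0 h, 7.98 and 9.6 at 2 h, 4.03 and 4.16 at 4 h, 1.85 and 1.32 at 6 h and 1.46 in both at 10 h. In shZNF598 libraries it was 12.2 and 11.4, 9.84 and 9.67, 3.95 and 4.54, 2.24 and 2.23, and 2.12 and 1.57 CPM at the same times. Most of the loss fell between 2 and 6 h in both lines, and 14.5% (shControl) and 15.7% (shZNF598) of the 0 h level was left at 10 h. The slope was -0.322 ± 0.038 (SE) in shControl and -0.301 ± 0.037 in shZNF598 (adjusted p = 1.99e-07 and 4.31e-07, edgeR's quasi-likelihood test), and 0.354% of protein-coding genes had a lower slope in shControl. At 24 h the level stood higher than at 10 h, by 1.47 and 0.92 on the log2 scale, in the 1 library of each shRNA.

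MRPL32, which the m-AAA protease trims in mitochondria before it joins the large subunit, followed. It went from 10.4 and 11.3 CPM at 0 h to 8.79 and 9.12, 6.87 and 7.97, 4.45 and 4.26, and 1.69 and 2.23 CPM at 2, 4, 6 and 10 h in shControl. In shZNF598 the values were 11.6 and 11, 10.0 and 9.58, 6.3 and 7.95, 3.74 and 4.46, and 2.89 and 2.44 CPM. Its mean level fell at every step in both lines, as that of MRPL44 did, and the shRNAs overlapped at 0, 4 and 6 h, with the shZNF598 libraries higher at 2 and 10 h. In shControl the slope came to -0.251 ± 0.020, and in shZNF598 to -0.223 ± 0.020.

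The next lowest slopes in shControl belonged to MRPL10, part of the stalk that recruits translation factors, to MRPS2, a small subunit protein kept from bacteria, and to MRPL49, a protein without bacterial counterpart. They were -0.231 ± 0.021, -0.231 ± 0.027 and -0.213 ± 0.022 log2 per hour. In shZNF598, MRPL15, MRPL34 and MRPL58 came after MRPL44 and MRPL32, at -0.210 ± 0.022, -0.210 ± 0.027 and -0.198 ± 0.021. MRPL58 (also known as ICT1) is a peptidyl-tRNA hydrolase that frees mitochondrial ribosomes stalled at the end of an mRNA. All these slopes passed the test, with adjusted p-values of 1.44e-05 (MRPS2 in shZNF598) or less in edgeR's quasi-likelihood test.

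At the other end stood MRPL40, a large subunit protein without bacterial counterpart. It rose from 3.95 and 5.14 CPM at 0 h to 4.15 and 4.68, 5.13 and 5.25, 6.81 and 8.03, and 11.6 and 12.5 CPM at 2, 4, 6 and 10 h in shControl. In shZNF598 it went from 5.39 and 5.21 to 5.22 and 4.48, 5.07 and 5.76, 6.35 and 7.86, and 10.1 and 8.75 CPM. The level was flat to 4 h and rose after it. The shZNF598 libraries lay above the shControl libraries at 0 h, overlapped them at 2, 4 and 6 h and lay below them at 10 h. The slopes were 0.152 ± 0.017 (shControl) and 0.095 ± 0.017 (shZNF598) (adjusted p = 9.83e-08 and 5.98e-05, edgeR's quasi-likelihood test).

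MRPL11, at the base of the stalk, rose in both lines. Its shControl values were 16.1 and 20.4 CPM at 0 h, 17.3 and 16.8, 20.7 and 21.5, 28.3 and 29.5, and 42.1 and 43.7 CPM at 10 h. Its shZNF598 values were 22.5 and 22, 22.6 and 19.3, 24.1 and 26.9, 30.4 and 35.4, and 43.5 and 44.2 CPM. The shZNF598 libraries lay above the shControl libraries at 0, 2, 4 and 6 h and overlapped them at 10 h. MRPL23, MRPL41 and MRPL33, all of the large subunit, had slopes of 0.151 ± 0.020, 0.129 ± 0.021 and 0.127 ± 0.016 in shControl. In shZNF598 the 5 highest were MRPL23 (0.148 ± 0.020), MRPL41 (0.114 ± 0.021), MRPL11 (0.109 ± 0.015), MRPS24 (0.099 ± 0.019) and MRPS15 (0.097 ± 0.013). MRPS24 shares exons with an annotated readthrough gene on its strand, and reads of these genes cannot be told apart there.

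**Figure D2:**
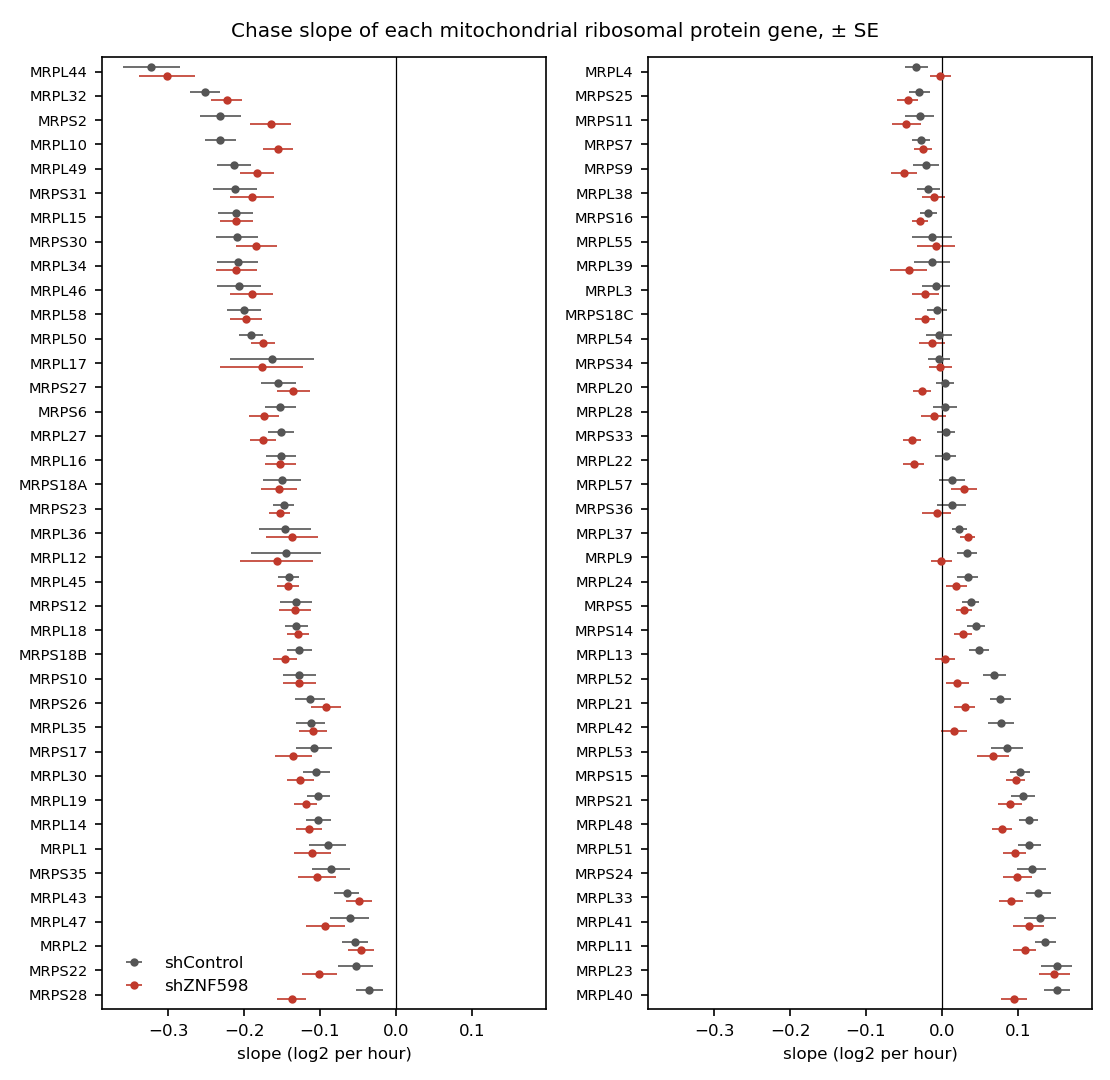
Slope of each of the 78 members in log2 per hour, in order of the shControl value, for shControl (grey) and shZNF598 (red), with standard errors. The order runs from MRPL44 at -0.322 to MRPL40 at 0.152, and MRPS28 has the widest gap between its points, at -0.035 in shControl and -0.137 in shZNF598.

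By 10 h, members held between 14.5% and 266% of their 0 h level in shControl, with a median of 75.9%. In 30 members under 50% was left, and 25 members stood above their 0 h level. In shZNF598 the range was 15.7% to 253%, with 35 members under 50% and 19 above their 0 h level. The change from 10 h to 24 h rests on 1 library per shRNA at 24 h and was not tested. In shControl it ranged from -1.99 to 1.60 on the log2 scale and was above 0 in 45 members. In shZNF598 it ranged from -1.55 to 1.37 and was above 0 in 46. The counts of this paragraph were taken over members only, so no share over all transcripts stands beside them.

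Members of both subunits and of both origins lay across the scale. The large subunit list had a median slope of -0.0344 in shControl, with 15 of 49 called higher and 25 lower, and the small subunit list one of -0.035, with 5 of 29 higher and 15 lower. The symbols are not exact here, since MRPS30 and MRPS18A are found in the large subunit in structures of the ribosome and MRPS36 is a subunit of the 2-oxoglutarate dehydrogenase complex. The 45 members listed with a bacterial counterpart had a median of -0.035, with 12 higher and 24 lower. The 31 listed without one had -0.0527, with 8 higher and 16 lower. In these lists MRPS18C stands with the first and its paralogues MRPS18A and MRPS18B with the second, a placing by convention, and MRPL55 and MRPS36 are in neither. Both ends of the range (MRPL44 and MRPL40) belong to the group without bacterial counterpart.

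Neighbours and paralogues in the ribosome had slopes on both sides of 0 or near it, with no test between genes. In the stalk region, MRPL10 and MRPL12 fell, at -0.231 ± 0.021 and -0.145 ± 0.046, whereas MRPL11 rose at 0.136 ± 0.014. MRPL12 rests on few reads, with 52 counts in its lowest library, and lost its call when the library shControl 10 h replicate 2 was left out (slope -0.123, adjusted p = 0.0513, edgeR's quasi-likelihood test). Its call in shZNF598 was likewise lost without shZNF598 10 h replicate 2 (-0.123, adjusted p = 0.0532). Of the paralogues MRPS18A, MRPS18B and MRPS18C, the first 2 fell, at -0.150 ± 0.025 and -0.127 ± 0.017, and MRPS18C had a slope of -0.007 ± 0.013 (adjusted p = 0.634, edgeR's quasi-likelihood test). MRPS12, a protein of the decoding centre, MRPS27, a pentatricopeptide repeat protein, and MRPS30 fell at -0.131 ± 0.021, -0.155 ± 0.023 and -0.209 ± 0.028. MRPS36 had 0.013 ± 0.019.

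The back-to-back genes MRPS11 and MRPL46, whose promoters share the stretch printed above, also differed. MRPL46 in shControl went from 7.2 and 7.71 CPM at 0 h to 5.4 and 6.23, 3.61 and 3.3, 2.43 and 1.98, and 2.1 and 1.88 CPM at 10 h. MRPS11 went from 10.7 and 13.9 CPM to 10.7 and 10.5, 10.5 in both, 11.6 and 13.9, and 9.26 and 8.84 CPM. At 10 h, MRPL46 had 26.8% and MRPS11 73.7% of the 0 h level. The slopes were -0.207 ± 0.029 (called) and -0.029 ± 0.019 (adjusted p = 0.173, edgeR's quasi-likelihood test), and a test between the genes was not run.

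Sequence features and abundance were set beside the slopes as a description. Over the 69 members with a transcript model of the deposited length, the level per kilobase had a Spearman rho of 0.39 with the slope in shControl, against 0.36 over 8953 protein-coding genes. Length had one of -0.27 against -0.17, and the length of the 3′ UTR -0.17 against -0.3. These genes share the libraries in which both measures were taken, and genes are not replicates. As a group, the members had short transcripts (median 1460 nt against 3580), 5′ UTRs (44 against 155 nt) and 3′ UTRs (519 against 1460 nt). By mean level per kilobase the members ran from MRPL22 at 1.4 to MRPL37 at 34.2 CPM per kb, with a median of 6.13. MRPL37 rose at 0.023 log2 per hour (adjusted p = 0.0484, edgeR's quasi-likelihood test).

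Annotated pseudogenes exist for 36 members, 16 share exon bases with another gene on the same strand and 22 with a gene on the opposite strand, so part of their reads may be assigned to, or come from, those loci. Those with a gene on the same strand include MRPL12, MRPL30, MRPL42, MRPL46, MRPS5, MRPS6, MRPS24 and MRPS28. Transcripts of 1 gene share exons and so reads, and are no independent measurements of it.

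Other genes of mitochondrial translation spanned the same scale. Of 5 mitoribosomal proteins under other symbols, 4 were called higher in shControl (AURKAIP1 0.103, GADD45GIP1 0.0864, CHCHD1 0.0484 and DAP3 0.0473 log2 per hour) and PTCD3 was called lower (-0.0411). Of 10 translation factors, 3 were called higher and 3 lower, with the elongation factors TUFM at 0.123 and TSFM at -0.134. Of 23 assembly factors tested (of 24 listed), 1 was called higher and 18 lower, with a median of -0.13. Those called lower include NOA1 (-0.223), a GTPase needed for the small subunit, and METTL15 (-0.238), a methyltransferase of the ribosomal RNA. Beside these 3 lists, 25.4% of protein-coding genes were called higher and 52.5% lower in shControl, and 25.3% and 49.3% in shZNF598. Adjusted p-values are from edgeR's quasi-likelihood test over all transcripts. In shZNF598 these lists had medians of 0.0368, -0.0144 and -0.114, with 3, 2 and 2 genes called higher and 1, 3 and 18 lower, and 0 genes of the 3 lists were called for the slope difference between the shRNAs (1 at an unadjusted p below 0.05).

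The central comparison, whether knockdown of ZNF598 changed the slopes, gave no called member. In shZNF598, 14 members rose and 45 fell relative to the bulk (background 32.7% of all transcripts called higher and 38.5% lower, 25.3% and 49.3% of protein-coding genes), and the median slope was -0.0482. Under scaling by total counts the split was 6 higher and 65 lower, with 16.8% of all transcripts called higher and 59.4% lower. Of the 20 members called higher in shControl, 14 were called higher in shZNF598 as well, and 38 of the 40 called lower were called lower again. No member was called in opposite directions. The rank correlation of the slopes over the 78 members was 0.97 between the shRNAs, and between the libraries numbered 1 and those numbered 2 it was 0.97 within shControl and 0.95 within shZNF598.

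For the slope difference, shZNF598 minus shControl, edgeR's quasi-likelihood test called 0 members higher and 0 lower, with 9 at an unadjusted p below 0.05. In edgeR's test the background was 0.00252% of all transcripts called higher and 0.113% lower, and 0.0% and 0.14% of protein-coding genes. DESeq2's Wald test called 1 member lower, MRPS28, and 0.0176% of all transcripts higher and 0.635% lower. The median difference was -0.0138 log2 per hour, against 0.00375 for protein-coding genes, and 26 of 78 members (33.3%) lay above 0, against 56.4% of protein-coding genes. Such a shift was not particular to the members. The median was -0.0169 for cytosolic ribosomal proteins (9.88% above 0) and -0.0261 for respiratory chain subunits (10.0% above 0). Over the members, the slope differences from libraries numbered 1 and numbered 2 had a rank correlation of 0.07, with 27 members below 0 in both and 8 above 0 in both.

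**Figure D3:**
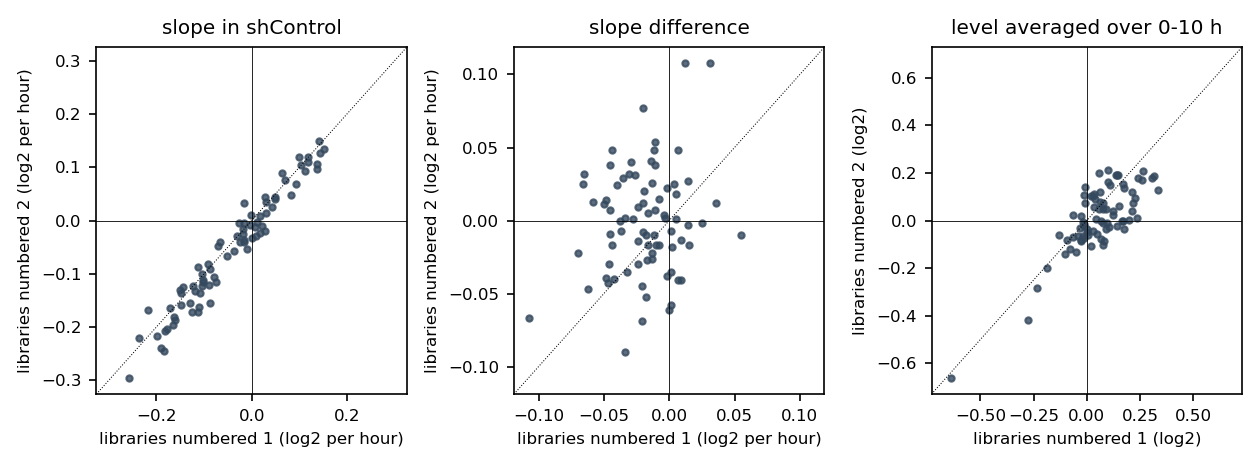
Each of the 78 members plotted by its value from the libraries numbered 1 (x axis) and numbered 2 (y axis), for the slope in shControl and the slope difference in log2 per hour and for the level averaged over 0-10 h in log2. The dotted line marks equal values. Slopes fall along the line (rank correlation 0.97), slope differences scatter around 0 (0.07), and changes of the averaged level lie between these (0.65).

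MRPS28, the counterpart of bacterial protein S1 in the small subunit, had the slope difference with the smallest p-value. In shControl it lay at 5.79 and 7.12 CPM at 0 h, 6.65 and 6.37 at 2 h, 6.61 and 7.49 at 4 h, 6.47 and 6.25 at 6 h and 4.92 and 5.17 at 10 h. In shZNF598 it lay at 5.35 and 5.16, 5.46 and 5.27, 4.27 and 4.61, 2.46 and 2.65, and 2.19 and 2.57 CPM. Every shZNF598 library was below both shControl libraries of its time, and the gap widened after 2 h, from a ratio to control of 0.825 at 2 h to 0.629 at 4 h, 0.401 at 6 h and 0.472 at 10 h. The slope was -0.035 ± 0.018 in shControl (not called) and -0.137 ± 0.019 in shZNF598 (called). Their difference of -0.102 ± 0.026 had an adjusted p of 0.217 in edgeR's quasi-likelihood test and of 0.0145 in DESeq2's Wald test. Over the other settings the adjusted p ranged up to 1, and with the 24 h libraries included the difference was -0.004. At 24 h the lines stood at 5.01 and 4.19 CPM. Of 8 transcripts of the gene tested, all 8 had a slope difference below 0, between -0.127 and -0.067, and the gene shares exons with an unnamed gene on the same strand.

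MRPL42, a large subunit protein without bacterial counterpart, came next among the differences below 0, at -0.062 ± 0.025 (adjusted p = 0.727, edgeR's quasi-likelihood test). Its shControl libraries held 67.3 and 61.0 CPM at 0 h, 75 and 73.4, 83.4 and 91.2, 113 and 118, and 98.5 and 108 CPM at 10 h. Its shZNF598 libraries held 58.8 and 61.1, 65.6 and 64.6, 76.2 and 69.9, 87.0 and 74.6, and 70.0 and 59.0 CPM. The groups overlapped at 0 h and were apart at the 4 later times, with shZNF598 lower. The transcript of this gene with the most counts is 15582 nt long and contains bases annotated to another locus and 5 pseudogenes are annotated for the gene. MRPL13, a large subunit protein, had a difference of -0.045 ± 0.018 (adjusted p = 0.745, edgeR's quasi-likelihood test).

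Among differences above 0, MRPL10 was the largest at 0.076 ± 0.029 (adjusted p = 0.655, edgeR's quasi-likelihood test). Its shControl libraries held 14.3 and 19 CPM at 0 h, 12.5 and 12.8, 8.11 and 8.43, 4.89 and 5.6, and 3.98 and 3.28 CPM at 10 h. Its shZNF598 libraries held 14.6 and 14.3, 10.4 and 10.8, 7.18 and 7.35, 4.98 and 5.4, and 4.72 and 5.74 CPM. The knockdown was lower at 2 and 4 h, level at 6 h and higher at 10 h, so the lines crossed. MRPS2 and MRPL4, other proteins kept from bacteria, had differences of 0.066 ± 0.037 and 0.033 ± 0.020 (adjusted p = 0.992 and 1.0, edgeR's quasi-likelihood test), and for MRPL4 the 2 replicate numbers gave -0.020 and 0.077.

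Of the members with the longest basic runs, the 4 whose codons are printed above had slope differences of -0.009 ± 0.015 for MRPS5, -0.006 ± 0.019 for MRPS15, 0.024 ± 0.038 for MRPS30 and -0.022 ± 0.028 for MRPS6, none of them called. MRPL40 also has a run of 5 in its annotated protein but was left out for the length of its transcript model, and its difference of -0.057 ± 0.025 was not called either and lay below those of the members kept with a run of 4 or more. The 12 members kept with a run of 4 or more basic residues ranged from -0.046 to 0.024, and the 57 with shorter runs from -0.102 to 0.076. The rho of the longest run with the slope difference was -0.04 over 69 members. The rho of coding GC content with the slope difference was 0.36 over the same members and 0.35 over 8953 protein-coding genes.

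**Figure D4:**
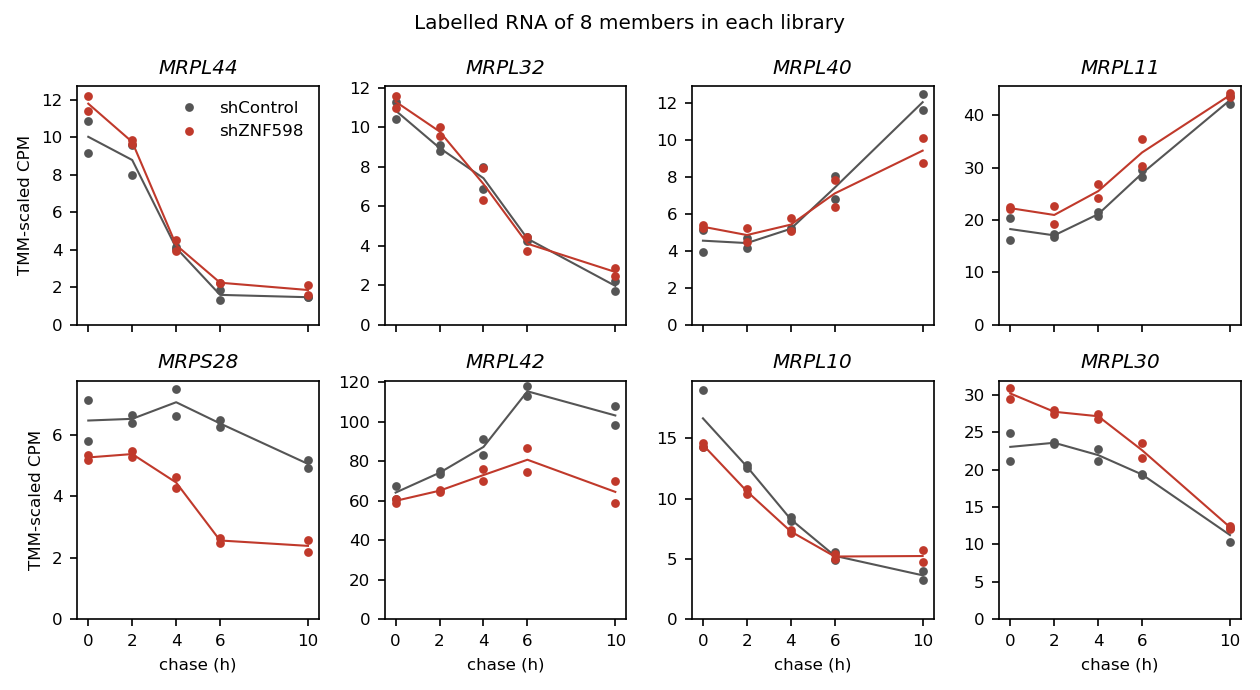
TMM-scaled CPM of 8 members in each library over the chase (x axis, h), with shControl in grey and shZNF598 in red, points for libraries and lines through the mean of 2. MRPL44 and MRPL32 fall and MRPL40 and MRPL11 rise in both lines, while shZNF598 lies lower for MRPS28 at all 5 times and for MRPL42 at the 4 times from 2 h.

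Before the chase, 0 members differed between the shRNAs in edgeR's quasi-likelihood test, with 10 at an unadjusted p below 0.05, and DESeq2's Wald test called 0 as well. Among all transcripts edgeR's test called 0.0729% higher and 0.335% lower (0.187% and 0.504% in DESeq2's), and among protein-coding genes 0.0932% and 0.596%. The 0 h change lay above 0 in 60 of 78 members, against 5799 of 10731 protein-coding genes. Such a shift was not particular to the members, since 79 of 81 cytosolic ribosomal proteins and 69 of 80 respiratory chain subunits lay above 0. The members' median 0 h change was 0.11 on the log2 scale, against 0.0172 for protein-coding genes. It rested on the shControl 0 h libraries, since the median was -0.00294 without the first of them and 0.233 without the second, in which case 3 members (MRPL11, MRPL30 and MRPL52) were called higher, with 0.967% of all transcripts called higher and 1.42% lower. MRPL30, MRPS22 and MRPS9 had the smallest p-values above 0, at 0.39 ± 0.10, 0.36 ± 0.12 and 0.30 ± 0.11 (adjusted p = 0.115, 0.273 and 0.322, edgeR's quasi-likelihood test). MRPS28, MRPL24 and MRPL10 had those below 0, at -0.30 ± 0.13, -0.26 ± 0.14 and -0.21 ± 0.13 (adjusted p = 0.414, 0.539 and 0.611, edgeR's quasi-likelihood test), and MRPL10 stood at 0.01 without the second shControl library.

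Averaged over the 5 times, 13 members were higher and 4 lower in shZNF598 (edgeR's quasi-likelihood test on the level). The background was 12.3% of all transcripts higher and 10.1% lower, and 15.6% and 12.1% of protein-coding genes, so 17 of 78 members called stand against 2973 of 10731 protein-coding genes. The median change was 0.0568 on the log2 scale, against 0.0248. Changes of the averaged level held between libraries better than slope differences, with a rank correlation of 0.65 between the replicate numbers over the members. For the 0 h level this correlation was 0.17. Of the subunits, the large had 10 higher and 2 lower and the small 3 higher and 2 lower, and of the classes, 9 higher and 3 lower had a bacterial counterpart and 4 and 1 did not.

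The largest change was that of MRPS28, which was lower by 0.73 ± 0.06 on the log2 scale (a change of -0.73, adjusted p = 1.37e-09, edgeR's quasi-likelihood test) and lower in all 10 libraries against those of the same time. MRPL42 was lower at -0.35 ± 0.05, with 10 of 10 transcripts of the gene, which share reads, called lower. MRPL24 and MRPS5, a protein next to the mRNA entry of the small subunit, were lower at -0.27 ± 0.06 and -0.20 ± 0.05, and their shRNAs were apart at all 5 times. MRPL24 lay at 7.91 to 11 CPM in shControl and 6.45 to 8.95 CPM in shZNF598. MRPS5 lay at 13.3 to 18.7 and 12.1 to 15.9 CPM, and 4 of its 7 transcripts tested were called lower. For both, the ranges over all times overlap although those within a time do not. The adjusted p-values were 7.07e-06 for MRPL42, 0.00243 for MRPL24 and 0.004 for MRPS5 (edgeR's quasi-likelihood test).

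The 5 largest increases were close to each other, at 0.26 ± 0.05 for MRPL30, 0.26 ± 0.06 for MRPL16, 0.25 ± 0.06 for MRPS6, 0.25 ± 0.07 for MRPL44 and 0.24 ± 0.05 for MRPL49. MRPL30 held 21.2 and 24.9 CPM at 0 h, 23.5 and 23.7, 21.1 and 22.8, 19.3 and 19.4, and 10.3 and 12.2 CPM at 10 h in shControl. In shZNF598 it held 29.5 and 30.9, 27.5 and 28, 27.5 and 26.8, 23.6 and 21.6, and 12.1 and 12.5 CPM. The shRNAs were apart to 6 h and met at 10 h. MRPL44 lost its call without shZNF598 10 h replicate 1 (0.20, adjusted p = 0.0612, edgeR's quasi-likelihood test). MRPS10 and MRPS18C had smaller changes of 0.17 ± 0.04 and 0.19 ± 0.06, and their shZNF598 libraries lay above the shControl libraries at all 5 times. How often libraries are apart in this way over all transcripts was not counted. Among the members, being apart at a single time was common. At 2 h the shZNF598 libraries lay above the shControl libraries in 31 members and below them in 8, and at 0 h in 27 and 3. They lay above at all 5 times in 2 members and below at all 5 times in 3. The other members called higher were MRPL11, MRPL33, MRPL20, MRPL51, MRPL18 and MRPL37, at 0.22 to 0.13. For MRPL33, 4 of 5 transcripts tested were called higher and 1 was called lower, at -0.226. Only part of the transcripts tested was called higher for MRPL16 (2 of 3), MRPL18 (2 of 4), MRPS18C (5 of 7), MRPL20 (5 of 6) and MRPL51 (6 of 7).

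**Figure D5:**
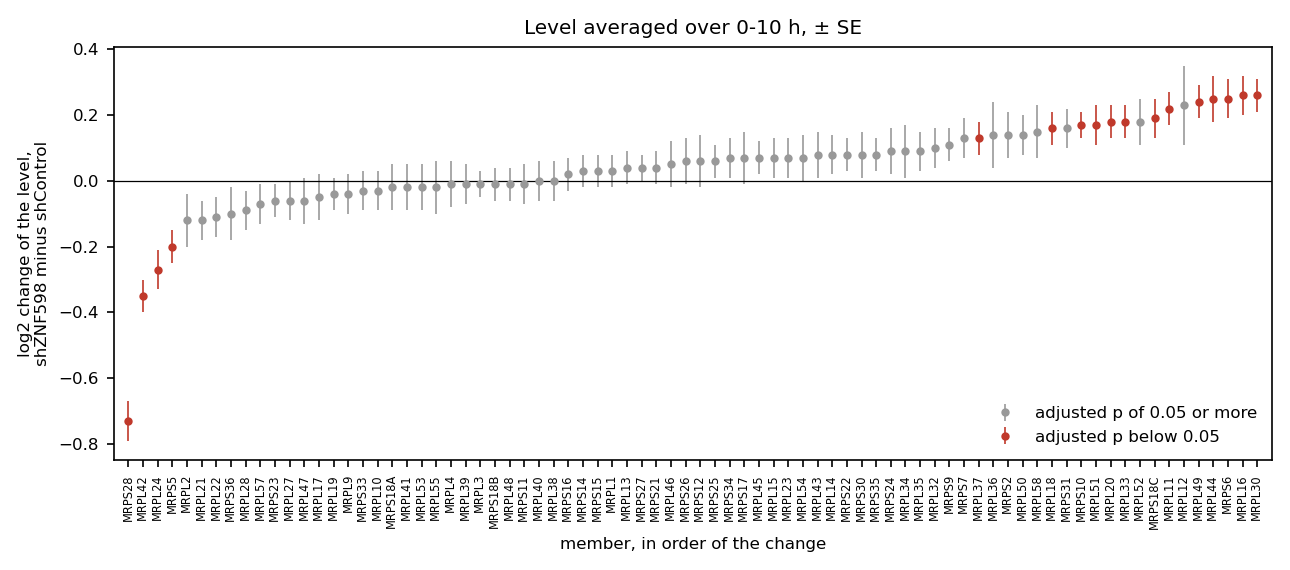
Log2 change of the level averaged over 0-10 h, shZNF598 minus shControl, for each of the 78 members in order of the change, with standard errors. Members with an adjusted p below 0.05 are red, and MRPS28 stands lowest at -0.73, followed by MRPL42 at -0.35, and the increases end at 0.26.

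For the other genes of mitochondrial translation, the level averaged over 0-10 h was called higher for 1 of 5 mitoribosomal proteins under other symbols (PTCD3, 0.22), for 0 of 10 translation factors (1 at an unadjusted p below 0.05) and for 2 of 23 assembly factors (NSUN4, 0.44, and FASTKD2, 0.18), with none called lower in edgeR's quasi-likelihood test. Cytosolic ribosomal proteins had 49 of 81 called higher and 1 lower, with a median of 0.168. Respiratory chain subunits had 14 of 80 higher and 5 lower, with a median of 0.0771. Of all protein-coding genes, 15.6% were called higher and 12.1% lower, with a median of 0.0248.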

How the data were processed

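BRIC-Seq libraries of HEK293T cells (22 libraries, 12 groups of shRNA and chase time) were analysed from the raw read counts per transcript that the authors deposited. Per the study's methods, reads were trimmed with fastp, freed of noncoding RNA, aligned with STAR (2.7.0a in the submitters' processing notes, which also name CASAVA 1.8) to hg38 with GENCODE release 32, allowing 1 mismatch and 1 locus, and counted with featureCounts. The strand setting is not given in the sources used here. Transcripts were named with GENCODE release 44, which matched 98.4% of 227264 identifiers, and unmatched ones held 2.24% of the counts. The 79513 rows that averaged 1 CPM or more in the 20 libraries up to 10 h were scaled by TMM and tested with edgeR 4.0.16 (R 4.3.3). Slopes came from a model of shRNA, hours and their product, and levels from 1 mean per group. The quasi-likelihood test was adjusted by Benjamini-Hochberg over all rows, and the standard error is the log2 change over the square root of F. The functions were tested on simulated data. The 24 h libraries entered 1 alternative and the 24 h values only. DESeq2 1.42.0, other scalings and filters, chase windows and left-out libraries were alternatives. Named members were up to 5 per direction and contrast with the largest called change and the same sign in both replicate numbers, those with the smallest p where fewer than 3 passed, and members with a known role. Other members named (MRPL46, MRPS11, MRPS10, MRPL52, those with the longest basic runs and the rest of those called for the averaged level) were named after their values were seen. Members and lists were chosen with earlier results of these data known. Slopes per replicate number used log2 CPM with a pseudocount of 0.5.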

Additional observations from a re-analysis of the deposited data

How the results depend on the processing

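Slopes depended most on scaling and on the window. The counts of members higher and lower in shControl were 10 and 62 with total counts, 3 and 20 over 0-4 h and 11 and 17 over 0-24 h. With a mean of at least 5 CPM, where 64 members remained, 13 were higher. Of all 79513 transcripts, 26651 and 32468 were called higher and lower in the main fit. The counts were 13757 and 48895 with total counts, 10228 and 16941 over 0-4 h, and 10695 and 12274 over 0-24 h. With at least 5 CPM, 13744 of 36364 transcripts were called higher. In shZNF598, 6 members were higher with total counts, 9 over 0-6 h, 1 and 25 were higher and lower over 0-4 h, and 7 and 16 over 0-24 h. Of all transcripts, 13330 were higher there with total counts and 24827 over 0-6 h. Over 0-4 h 10630 were higher and 16316 lower, and over 0-24 h 9671 and 11158. The median slope in shControl was -0.0228 (DESeq2's Wald test), -0.0230 (DESeq2 size factors), -0.105 (total counts), -0.0556 (5 CPM), -0.0200 (0-24 h) and -0.0511 (2-10 h), and -0.0487 to -0.0296 with 1 library left out. In shZNF598 it was -0.0390, -0.0389, -0.110, -0.0698, -0.0225 and -0.0619, and -0.0412 with 1 row per gene. DESeq2's Wald test called 1 member lower for the slope difference. With 1 library left out, 0 to 3 members were called higher at 0 h, the 3 only without shControl 0 h replicate 2. Signs turned for MRPS24 (-0.010) and MRPL12 (0.028) in shZNF598 and for the slope differences of MRPL4 (-0.023) and MRPL13 (0.012), all over 0-4 h, and for MRPL10 at 0 h (-0.40 to 0.01 with 1 library left out, above 0 without shControl 0 h replicate 2), and the cause was not tested. Of 1730 values of named members, 1676 kept direction and side of the threshold, 47 lost the call and 2 gained it. A fit with the replicate number as a block (replicate block) gave 20 and 40, 14 and 46, and 13 and 4 calls for the slopes and the averaged level. It changed no other call by over 1.5 times. Over all 79513 transcripts the same fit called 26643 and 32284, 25965 and 30494, and 10264 and 8338. Same-numbered libraries deviated together, with a correlation over 0.1, in 18 of 45 pairs of groups (range -0.477 to 0.702). In 7 of 10 groups the strongest correlation with another group was positive, that is, between libraries of the same number. These values do not settle whether the numbers mark pairs, and the main fit did not take them as pairs. Libraries of 1 group were not alike within sampling noise (chi-square per degree of freedom 2.31 to 18.8). The canonical transcript could be tested for 77 members. Low counts, down to 40 in 1 library, limit 10 members with under 100 counts in their lowest library.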
